A study of Mus musculus with 12 samples.

Results

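The Toll-like receptors and the proteins that carry or restrain their signal were examined in peritoneal macrophages with and without IκBζ, an LPS-inducible nuclear protein of the IκB family encoded by Nfkbiz. The set was defined by gene name, but it was chosen with earlier results of these data known. It held 41 genes for receptors, co-receptors, adaptors, kinases, ubiquitin ligases and inhibitors, each read from its brightest probe set with exactly 1 gene symbol. Of these, 34 were measured, among 19938 genes on the array. Tlr5, Tlr11, Irak4, Traf3, Chuk, Ripk1 and Ripk2 had no such probe set and were not analysed here, and no measured member had a second probe set.

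Cells were flushed from the peritoneal cavity of female mice and plated, without a sort. The 4 groups were wild-type C57Bl/6 cells left untreated, wild-type cells given lipopolysaccharide (LPS) at 1 µg/ml for 4 h, Nfkbiz-/- cells left untreated, and Nfkbiz-/- cells given the same LPS treatment, with 3 Affymetrix whole-transcript arrays in each. The sources used here do not give the age of the mice, the construction of the Nfkbiz allele or the strain on which it was held. Whether arrays of the same group stem from different animals is not said in the labels. P-values therefore describe the spread between these arrays, which may be technical.

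Toll-like receptors recognise microbial products. TLR4, with its partner MD-2 (Ly96) and with CD14 as the carrier of LPS, senses LPS at the cell surface and in endosomes, while TLR3, TLR7, TLR8, TLR9 and TLR13 sense nucleic acids in endosomes. The adaptor MyD88 assembles the IRAK kinases and TRAF6, which act through TAK1 and the IKK complex to release NF-κB, and the adaptor TRIF (Ticam1), reached from TLR4 by way of TRAM (Ticam2), leads to TBK1 and interferon genes. IRAK-M (Irak3), found mainly in the monocyte and macrophage lineage, limits signalling at the IRAK step and is known for its part in tolerance to repeated LPS.

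Values are the authors' RMA intensity on a linear scale, always in the order of replicates 1 to 3, and differences are on the log2 scale with the standard error (SE) of a limma fit over all 12 arrays. Adjusted p is limma's moderated two-sided p after Benjamini-Hochberg adjustment over all 19938 genes, and a gene was said to rise, fall or differ when it was under 0.05. Nfkbiz itself was lower in knockout than in wild type under both treatments, by a log2 difference of -0.65 (SE 0.10, adjusted p = 0.0401) untreated and -1.17 (SE 0.10, adjusted p = 7.23e-05) with LPS. Its probe set was not silent in the knockout and rose with LPS there too, and the sources used here do not say which part of the gene it reads relative to the deletion. All 9 macrophage markers were measured, at a mean log2 intensity of 11.57 to 12.09 per array. With LPS, 5 of them were called in wild type (1 higher, 4 lower), where 28.1% of all genes were. In the knockout 6 were called (2 higher, 4 lower), where 45.7% of all genes were. Between genotypes with LPS, Mertk was higher (1.29, SE 0.11, adjusted p = 0.000103) and Adgre1 lower (-0.35, SE 0.08, adjusted p = 0.0245) in the knockout, and Mertk was called in the difference of LPS responses (1.27, SE 0.16, adjusted p = 0.0053). Of all genes, 8.14% were called between genotypes with LPS and 0.747% in the difference of LPS responses. Among markers of other cells a peritoneal wash can hold, B-cell genes (5 of 6 measured) summed to 713.8 to 1772 in intensity over the 12 arrays, and mast-cell genes (6 of 6 measured) summed to 595.7 to 2694, the highest sums being those of knockout replicate 3 in both treatments. Dendritic-cell genes (5 of 5 measured) summed to 564.2 to 1981, highest on untreated wild-type replicate 3, where Cd209a read 1228. Clec9a among them was lower on every array with LPS (79.2 to 153.9) than on every untreated array (254 to 939.5). T-cell, NK-cell, neutrophil, eosinophil and mesothelial genes each summed to at most 896.4 on any array. In bulk RNA, fewer cells of a type and less RNA per cell cannot be told apart, and this holds for every member below.

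LPS changed most of the pathway in wild-type cells, with rises more frequent than over all genes and falls about as frequent. The ubiquitin ligase gene Peli1 rose most, the kinase genes Ikbke and Irak2 and the inhibitor gene Irak3 rose less, and the receptor genes Tlr13 and Tlr8 and the receptor-like Cd180 fell most. In wild type, 19 of 34 members passed the test, where 28.1% of all genes did. Of the 34, 12 rose (35.3%) and 7 fell (20.6%), against 9.53% and 18.5% of all genes, so the share that fell was near that of all genes. A change of at least 2-fold was seen for 5, against 6.04%. The median absolute log2 difference of the members was 0.476, against 0.163 over all genes. In the knockout, 19 of 34 members (55.9%) also passed, where 45.7% of all genes did. There 10 rose (29.4%), against 21.9%, and 9 fell (26.5%), against 23.8%, so the share that fell was again near that of all genes. At least 2-fold changes were seen for 7 members, against 9.18% of all genes, and the median absolute difference was 0.462 against 0.237. With a replicate block within genotype, 23 members passed in the knockout, Cd180, Tlr7, Traf6 and Ikbkg being added, and 20 in wild type, Tlr4 being added.

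The split between rising and falling genes rests on how the arrays are scaled. With each array centred on its 75th percentile, the median of all genes shifted to 0.193 in wild type and 0.284 in the knockout, and the share of rising genes among all called went from 34% to 72.8% and from 47.9% to 76.6%. It was 44.5% in wild type after a second quantile normalization. Of the members, 15 rose and 6 fell in wild type under that centring, and 20 rose and 5 fell in the knockout. No member that was called in either scaling had the opposite sign in the other.

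**Figure D1:**
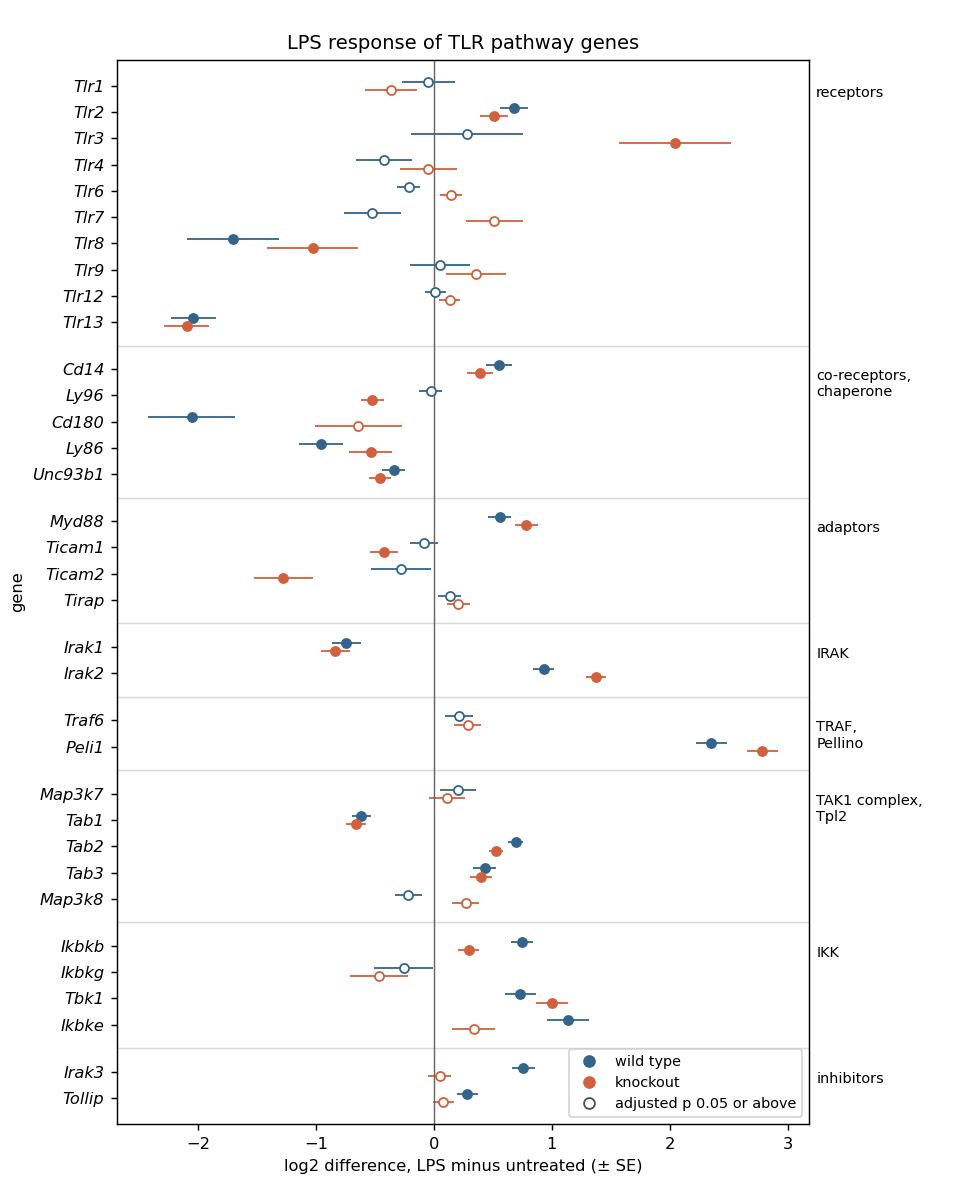
Log2 difference between LPS and untreated (x axis, with SE of the fit as bars) for the 34 measured genes (y axis), ordered by role, with wild type in blue and knockout in orange; filled points had an adjusted p under 0.05. Peli1 lies farthest to the right and Tlr13 farthest to the left in the knockout, while Irak3 and Ikbke are filled and to the right in wild type only.

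With LPS in both genotypes, 11 of 34 members differed between knockout and wild type, where 8.14% of all genes did. Higher in the knockout were 6 (Tlr3, Tlr7, Cd180, Ly86, Irak2 and Peli1), against 3.28% of all genes, and lower were 5 (Tlr1, Ly96, Tab2, Ikbkb and Irak3), against 4.87%. A difference of at least 2-fold was seen for 3 of them, Cd180, Tlr3 and Tlr7, against 1.38% of all genes, and Irak3 was just short of it. The median of all 34 differences was -0.053, against -0.009 over all genes, and the median absolute difference was 0.236 against 0.104. Of all genes called here, 40.2% were higher in the knockout, and 52.6% with each array centred on its 75th percentile. Without wild-type LPS replicate 1, 6 members were called, and without wild-type LPS replicate 3, wild-type untreated replicate 2, knockout LPS replicate 3 or knockout untreated replicate 1, 7 were. In a fit on only the arrays compared, 2 were called, Ikbkb and Irak3.

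**Figure D2:**
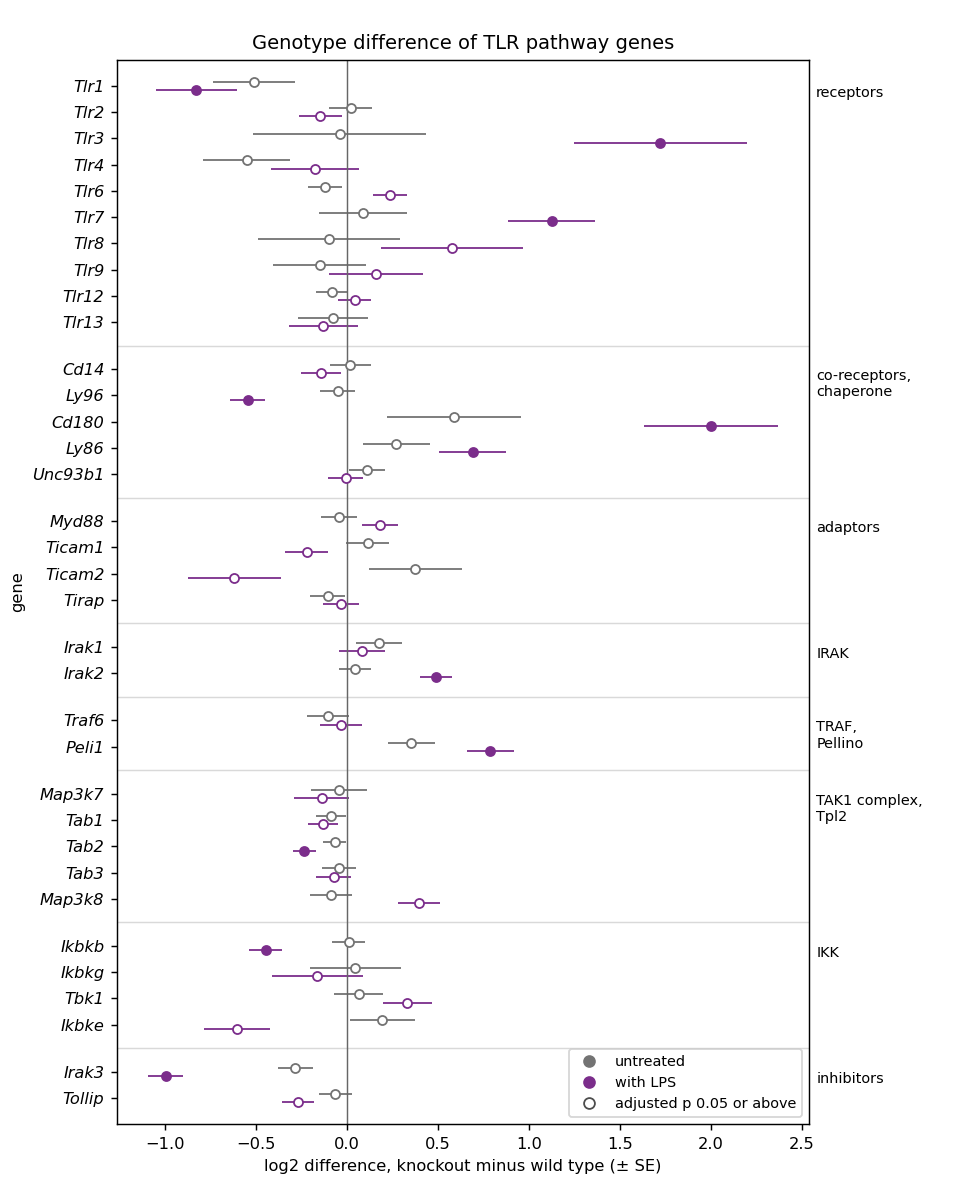
Log2 difference between knockout and wild type (x axis, with SE of the fit as bars) for the 34 measured genes (y axis), ordered by role, in untreated cells (grey) and with LPS (purple); filled points had an adjusted p under 0.05. No untreated point is filled, and with LPS Cd180 lies farthest to the right at 2.00 and Irak3 farthest to the left at -0.99.

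Promoter sequences are shown for Irak3 and Peli1 and, as chosen examples with a match, for Tlr2, Tlr3 and Myd88. They are set beside the κB and interferon response motifs, through which NF-κB and interferon factors act. RefSeq windows of assembly GRCm38.p6, from 250 bases before to 50 after each annotated start, were found for 25 of the 34 measured members. The κB motif was searched by its usual consensus and the interferon response motif as GAAANNGAAA, both on both strands. The κB motif was found in 4 of 25 members (16%), Irak1, Map3k7, Tlr2 and Tlr3, against 9.55% of 27025 genes. The interferon response motif was found in 2 of 25 (8%), Myd88 and Tlr6, against 3.99% of genes. Both are matches of letters and not shown sites of binding. Among members with a match that are not printed, Irak1 fell with LPS in both genotypes, and Map3k7 and Tlr6 were called in no comparison of the main fit. Cd180, with the largest genotype difference with LPS, had no match in its windows.

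Irak3, the gene with the called difference in LPS response, has 2 annotated starts. The 80 bases before each hold neither motif, nor do the whole windows, and they are printed without capitals. Peli1, the member that rose most with LPS, likewise has no match, and the 80 bases before its start follow.
Irak3, chr10:120201598-120201677 (minus strand): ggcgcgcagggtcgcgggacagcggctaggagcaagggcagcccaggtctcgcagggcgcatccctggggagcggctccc
Irak3 upstream start, chr10:120202131-120202210 (minus strand): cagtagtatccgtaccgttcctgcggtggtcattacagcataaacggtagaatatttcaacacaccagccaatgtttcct
Peli1, chr11:21091244-21091323 (plus strand): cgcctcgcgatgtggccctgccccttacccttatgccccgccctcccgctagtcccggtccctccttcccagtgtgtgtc

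Tlr2 and Tlr3 carry κB matches and Myd88 an interferon response match, each printed here in capitals within its surroundings. In Tlr2, which rose in both genotypes, a pair of overlapping matches lies 173 to 163 bases before the start, and a further match spans the start. In Tlr3 the match lies 211 to 202 bases before the start, and in Myd88 it lies 40 to 31 bases before it.
Tlr2, chr3:83841746-83841806 (minus strand): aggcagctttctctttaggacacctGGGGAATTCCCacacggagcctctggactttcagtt
Tlr3, chr8:45410557-45410616 (minus strand): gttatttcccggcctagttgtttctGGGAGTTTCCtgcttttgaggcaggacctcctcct
Myd88, chr9:119340024-119340083 (minus strand): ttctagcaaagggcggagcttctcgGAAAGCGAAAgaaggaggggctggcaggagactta

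Among the 10 measured receptors, Tlr13 and Tlr8 fell with LPS in both genotypes. Tlr13, a receptor for bacterial ribosomal RNA, read 4081, 3782 and 3566 in untreated wild type, 1046, 814 and 924 in wild type with LPS, 3452, 3532 and 3851 in the untreated knockout and 615, 1207 and 808 in the LPS-treated knockout. Every array with LPS lay below every untreated array of its genotype, and the difference was -2.04 (SE 0.19, adjusted p = 1.21e-05) in wild type and -2.10 (SE 0.19, adjusted p = 6.2e-06) in the knockout. The genotypes overlapped with LPS, at a difference of -0.13 (SE 0.19, adjusted p = 0.787) with a 95% interval of -0.55 to 0.29.

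Tlr8, an endosomal receptor related to TLR7, read 4489.8, 3968 and 4399.5 in untreated wild type, 1239, 2349 and 777 in wild type with LPS, 3707, 3589 and 4798 in the untreated knockout and 2324, 1082 and 2978 in the LPS-treated knockout. The fall was -1.71 (SE 0.39, adjusted p = 0.00608) in wild type, where the arrays with LPS did not overlap the untreated ones although they spread widely among themselves. In the knockout the difference was -1.03 (SE 0.39, adjusted p = 0.0483). It was -0.60 with adjusted p = 0.18 without knockout LPS replicate 2, the lowest of that group, and the call was lost in 9 of 12 leave-one-out fits (each without 1 array), kept without wild-type LPS replicate 2 or 3 or knockout LPS replicate 3. Between genotypes with LPS the arrays overlapped (0.58, SE 0.39, adjusted p = 0.461).

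Tlr3 and Tlr7 were higher in knockout than in wild-type cells with LPS. Tlr3, the receptor for double-stranded RNA, read 488, 478 and 483 in untreated wild type, 593, 1425 and 239 in wild type with LPS, 400.2, 384 and 675 in the untreated knockout and 1908, 1645 and 2304 in the LPS-treated knockout. In untreated cells the genotypes overlapped, and with LPS all knockout arrays were above all wild-type arrays, which themselves spanned from below to well above the untreated level. Tlr3 rose with LPS in the knockout (2.04, SE 0.47, adjusted p = 0.0046) and gave 0.28 (SE 0.47, adjusted p = 0.701) in wild type. The difference between genotypes with LPS was 1.72 (SE 0.47, adjusted p = 0.0476). That call was lost in 11 of 12 leave-one-out fits (adjusted p of up to 0.13) and kept without wild-type LPS replicate 2, where the difference was 2.36, against 1.07 without wild-type LPS replicate 3. The Tlr3 promoter, like that of Tlr2, is shown above with a κB match.

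Tlr7, the receptor for single-stranded RNA, read 2765, 2954 and 2769 in untreated wild type, 2177, 2893 and 1208 in wild type with LPS, 2689.8, 3052 and 3317 in the untreated knockout and 3827, 4948 and 4171 in the LPS-treated knockout. With LPS every knockout array was above every wild-type array, and wild-type LPS replicate 3 was the lowest of all 12. The difference was 1.13 (SE 0.24, adjusted p = 0.0153), and it was 0.77 without wild-type LPS replicate 3 and 1.40 without wild-type LPS replicate 2, called in both cases. On only the arrays compared it was not called (adjusted p = 0.108). The LPS response of Tlr7 was -0.52 (SE 0.24, adjusted p = 0.134) in wild type and 0.51 (SE 0.24, adjusted p = 0.101) in the knockout. Without wild-type LPS replicate 2 or 3, or without both wild-type LPS replicate 3 and knockout untreated replicate 3, Tlr7 rose in the knockout (adjusted p = 0.0423, 0.00769 and 0.00875), and without wild-type LPS replicate 2 it fell in wild type (adjusted p = 0.0165). With a replicate block within genotype, its rise in the knockout passed as well (adjusted p = 0.0466).

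The arrays differed in their interferon-stimulated level, and the members called between genotypes with LPS are placed beside it here. Over 17 of 20 listed interferon-stimulated genes such as Ifit1, Rsad2 and Mx1, the mean log2 intensity was 8.66, 8.60 and 7.89 in untreated wild type, 11.43, 12.28 and 9.68 in wild type with LPS, 8.98, 8.73 and 10.57 in the untreated knockout and 12.38, 12.43 and 12.61 in the LPS-treated knockout. Wild-type LPS replicate 3 was thus low and knockout untreated replicate 3 high within their groups. With LPS, none of the 17 was called between genotypes by limma, where 8.14% of all genes were, and their median difference was 1.058. An unadjusted p under 0.05 was found for 7 of the 17, against 4385 of 19938 genes. On the wild-type arrays with LPS, Tlr3 and Tlr7 were highest on replicate 2 and lowest on replicate 3, which was the order of this level too. The other members higher in the knockout, Cd180, Ly86, Irak2 and Peli1, had the same order. So did members not called between genotypes, such as Tlr2, Tlr8 and Tbk1. Members lower in the knockout (Tlr1, Ly96, Tab2, Ikbkb and Irak3) did not have it. The part of the interferon-stimulated level in the genotype difference of any of these genes was not tested. With wild-type LPS replicate 3 and knockout untreated replicate 3 both left out, the Tlr3 difference was 1.07 (adjusted p = 0.0846), Tlr3 also rose with LPS in wild type (0.93, adjusted p = 0.0387) and 6 of 34 members were called between genotypes with LPS.

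**Figure D3:**
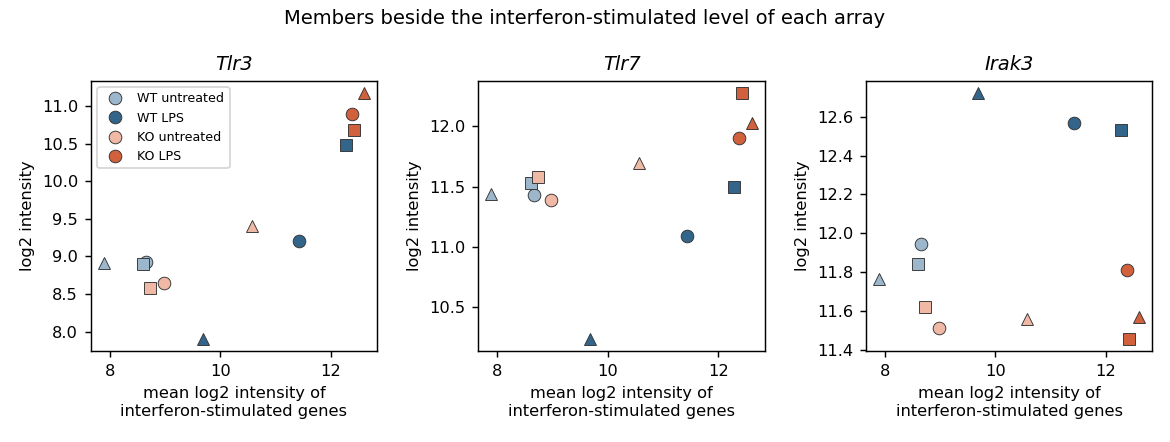
Log2 intensity of Tlr3, Tlr7 and Irak3 (y axes) against the mean log2 intensity of 17 interferon-stimulated genes on the same array (x axes), 1 point per array, coloured by group, with circle, square and triangle for replicates 1, 2 and 3. Tlr3 is highest where this level is highest, whereas for Irak3 the wild-type arrays with LPS lie above all others at levels from 9.68 to 12.28.

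Of the receptors for surface ligands, only Tlr2 rose in both genotypes. Tlr2, the lipoprotein receptor, lay between 5372 and 5597 on untreated and between 8049.8 and 9613 on LPS-treated wild-type arrays, and between 5291 and 5814 and between 6383 and 8977 in the knockout. The difference was 0.68 (SE 0.12, adjusted p = 0.00104) in wild type and 0.51 (SE 0.12, adjusted p = 0.00441) in the knockout, and the genotypes overlapped with LPS (95% interval of the difference -0.40 to 0.11). Tlr1, which pairs with TLR2, read 762, 542 and 590.0 in untreated wild type, 687, 539.7 and 593 in wild type with LPS, 443, 347 and 546 in the untreated knockout and 276, 488 and 292 in the LPS-treated knockout. With LPS the knockout arrays lay below all wild-type arrays (-0.83, SE 0.22, adjusted p = 0.044), a call lost in 7 of 12 leave-one-out fits. Over the 12 the difference was -1.09 to -0.68, with an adjusted p of up to 0.154. Untreated, 2 of the 3 knockout arrays were also below every wild-type array, at a difference of -0.51 (SE 0.22, adjusted p = 0.558). Without knockout LPS replicate 2, which was the highest of its group, Tlr1 fell with LPS in the knockout by 0.62 (adjusted p = 0.0208).

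Tlr4, the LPS receptor itself, read 2086, 1718 and 2055 in untreated wild type, 1503, 1387 and 1465 in wild type with LPS, 1325, 895 and 1974 in the untreated knockout and 1434, 974 and 1518 in the LPS-treated knockout. All wild-type arrays with LPS were below all untreated wild-type arrays, but the difference of -0.42 (SE 0.24, adjusted p = 0.224) did not pass, while it did in the fit restricted to the 6 arrays compared and in the fit with a replicate block within genotype (adjusted p = 0.00926 and 0.0151). In the knockout the arrays spread more than the treatments differed (-0.05, SE 0.24, adjusted p = 0.886), with replicate 2 lowest in both treatments. Between genotypes the difference was -0.55 (SE 0.24, adjusted p = 0.557) untreated and -0.18 (SE 0.24, adjusted p = 0.769) with LPS, the latter with a 95% interval of -0.70 to 0.35. Tlr6, Tlr9 and Tlr12, for diacylated lipopeptides, unmethylated CpG DNA and, with TLR11, a parasite profilin, were called in no comparison. Their LPS differences ran from -0.22 (Tlr6) to 0.05 (Tlr9) in wild type and from 0.13 (Tlr12) to 0.36 (Tlr9) in the knockout, where Tlr9 rose by 0.67 without knockout LPS replicate 2 (adjusted p = 0.0247), Tlr6 by 0.24 without knockout untreated replicate 3 (adjusted p = 0.0471), and Tlr6 and Tlr12 by 0.35 with each array centred on its 75th percentile. Tlr12 lay at 65.4 to 81.6 on untreated arrays, below every array's median.

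Of the LPS co-receptor genes, Cd14 rose with LPS in both genotypes and Ly96 fell in the knockout. Cd14, which hands LPS to the receptor complex, read 7745, 7836 and 7061 in untreated wild type, 11162, 11289 and 10757 in wild type with LPS, 8001, 7655 and 7288 in the untreated knockout and 11450.1, 8160.1 and 10823 in the LPS-treated knockout. It rose in wild type (0.55, SE 0.11, adjusted p = 0.00269) and in the knockout (0.39, SE 0.11, adjusted p = 0.0132), without overlap in either. Knockout LPS replicate 2 was the low array, and without it the knockout difference was 0.54, while without knockout LPS replicate 1 or 3 it was 0.30 and 0.34 and no longer called. Between genotypes with LPS the arrays overlapped, and the 95% interval of the difference was -0.38 to 0.10.

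Ly96, which encodes the LPS-binding subunit MD-2, was lower in the knockout with LPS. It read 4812, 4752 and 4614 in untreated wild type, 4901, 4793 and 4245 in wild type with LPS, 4356, 4683 and 4659 in the untreated knockout and 3071, 3691 and 2831 in the LPS-treated knockout. The untreated arrays of both genotypes and the wild-type arrays with LPS lay close together, and the 3 knockout arrays with LPS lay below all of them. The LPS difference was -0.03 (SE 0.10, adjusted p = 0.863) in wild type and -0.52 (SE 0.10, adjusted p = 0.00104) in the knockout, and the genotypes differed with LPS by -0.55 (SE 0.10, adjusted p = 0.00618). That genotype difference did not pass on only the arrays compared (adjusted p = 0.0671). The difference between both LPS responses was -0.49 (SE 0.14, adjusted p = 0.136), which passed without knockout LPS replicate 2 (-0.60, adjusted p = 0.0395).

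Cd180 and Ly86 encode partners, a receptor-like protein and its MD-1 subunit, that bind each other and modulate LPS responses in B cells and macrophages. Cd180 read 2884, 3097 and 2324 in untreated wild type, 821, 855 and 413 in wild type with LPS, 3382, 5024 and 4155 in the untreated knockout and 1488, 4628 and 2689 in the LPS-treated knockout. In wild type every array with LPS was far below every untreated array (-2.05, SE 0.37, adjusted p = 0.00128), whereas in the knockout the arrays overlapped (-0.64, SE 0.37, adjusted p = 0.17). With LPS the knockout was higher by 2.00 (SE 0.37, adjusted p = 0.00777), a 4-fold difference. The lowest value, 413, was on wild-type LPS replicate 3 and the highest with LPS, 4628, on knockout LPS replicate 2. The genotype difference was 1.60 without that knockout array and 1.66 without that wild-type array, and it was called in all 12 leave-one-out fits. On only the arrays compared it was not called (adjusted p = 0.0707).

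The difference between the LPS responses of Cd180 was 1.41 (SE 0.52, adjusted p = 0.268), and it passed (adjusted p = 0.0423) only with a replicate block within genotype, a fit added after the data were seen, in which the fall of Cd180 in the knockout also passed (adjusted p = 0.0216). Without knockout LPS replicate 2, Cd180 fell by 1.05 in the knockout (adjusted p = 0.0235). Since B cells also carry Cd180, their markers stand beside it: 5 of 6 were measured, summed to 907.4 to 1240 on wild-type and 713.8 to 1173 on knockout arrays with LPS, and 0 of 5 were called between genotypes with LPS by limma (1 at an unadjusted p under 0.05). Of all genes, 8.14% were called there and 4385 of 19938 had an unadjusted p under 0.05, so 5 genes say little on B-cell content. For LPS, 1 of the 5, Cd79b, fell in wild type (-0.98, SE 0.22, adjusted p = 0.00554) and in the knockout (-1.27, SE 0.22, adjusted p = 0.000661), where 18.5% and 23.8% of all genes fell. The part of Cd79b in the fall of Cd180 was not tested. The part of B cells in the genotype difference of Cd180 was not tested either.

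Ly86 also fell with LPS in wild type and was higher in the knockout with LPS. It read 4801, 4198 and 3779 in untreated wild type, 2035, 2662 and 1918 in wild type with LPS, 4931, 4179 and 6491 in the untreated knockout and 3074, 3272 and 4349.8 in the LPS-treated knockout. The fall with LPS was -0.96 (SE 0.18, adjusted p = 0.00205) in wild type, without overlap, and -0.54 (SE 0.18, adjusted p = 0.0327) in the knockout, with overlap. With LPS all knockout arrays were above all wild-type arrays (0.69, SE 0.18, adjusted p = 0.041), but the call was lost in 8 of 12 leave-one-out fits. Over the 12 the difference was 0.54 to 0.84, with an adjusted p of up to 0.165. The fall in the knockout was lost without knockout LPS replicate 1 or 2 or knockout untreated replicate 1 or 3. Unc93b1, the chaperone that brings nucleic acid receptors to endosomes, fell in wild type (-0.34, SE 0.10, adjusted p = 0.0203) and in the knockout (-0.46, SE 0.10, adjusted p = 0.00257). Neither fall passed with each array centred on its 75th percentile, and the wild-type fall was lost without wild-type LPS replicate 1 or 3 or wild-type untreated replicate 1 or 2.

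Of the adaptors, the one shared by most receptors rose in both genotypes, and Ticam1 and Ticam2 of the TRIF branch fell in the knockout. Myd88 read 3421, 2893 and 2686 in untreated wild type, 4224, 4800.1 and 4188 in wild type with LPS, 2899, 2717 and 3084 in the untreated knockout and 4675, 5089.9 and 5185 in the LPS-treated knockout. Arrays with LPS were above all untreated arrays in each genotype, with a rise of 0.56 (SE 0.10, adjusted p = 0.00115) in wild type and 0.78 (SE 0.10, adjusted p = 6.82e-05) in the knockout. The genotypes overlapped with LPS (0.18, SE 0.10, adjusted p = 0.336), with a 95% interval of -0.04 to 0.40. Its promoter, shown above, holds the interferon response match.

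Ticam2, encoding the TRAM adaptor that links TLR4 to TRIF, read 544, 465 and 419.6 in untreated wild type, 401, 327 and 450.2 in wild type with LPS, 579, 739 and 543 in the untreated knockout and 221, 411 and 179 in the LPS-treated knockout. It fell in the knockout (-1.28, SE 0.25, adjusted p = 0.00171), without overlap, and gave -0.28 (SE 0.25, adjusted p = 0.449) in wild type. Knockout LPS replicate 2 stood above the other arrays of its group, and the genotype difference with LPS went from -0.62 (SE 0.25, adjusted p = 0.175) to -0.97 (adjusted p = 0.00899) without it. The difference between both LPS responses was -0.99 (SE 0.36, adjusted p = 0.257), and -1.34 (adjusted p = 0.0241) without that array. Ticam1, encoding TRIF, fell in the knockout (-0.43, SE 0.12, adjusted p = 0.0125) and gave -0.09 (SE 0.12, adjusted p = 0.62) in wild type, and its fall did not pass after quantile normalization, with each array centred on its 75th percentile, or without knockout LPS replicate 3. Tirap, the bridge between TLR2 or TLR4 and MyD88, was called in no comparison, with LPS differences of 0.13 and 0.20, though it rose in both genotypes with each array centred on its 75th percentile (0.29 and 0.42) and in the knockout without knockout untreated replicate 3 (0.31, adjusted p = 0.0151). None of the 4 adaptors was called between genotypes with LPS by limma, where 8.14% of all genes were. An unadjusted p under 0.05 was found for 1 of them, Ticam2, and for 4385 of 19938 genes.

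The IRAK kinases moved in opposite directions. Irak2, whose product sustains signalling downstream of MyD88, read 1671, 1447 and 1503 in untreated wild type, 2923, 3219 and 2669.6 in wild type with LPS, 1575, 1559 and 1622 in the untreated knockout and 3974, 3929 and 4454 in the LPS-treated knockout. The rise was 0.93 (SE 0.09, adjusted p = 1.27e-05) in wild type and 1.38 (SE 0.09, adjusted p = 6e-07) in the knockout, and no array with LPS overlapped an untreated one. With LPS every knockout array was above every wild-type array, at a difference of 0.49 (SE 0.09, adjusted p = 0.00641), while the untreated genotypes overlapped. That difference did not pass on only the arrays compared (adjusted p = 0.0541). The difference between both responses was 0.45 (SE 0.12, adjusted p = 0.14). Irak1, the kinase recruited to the MyD88 complex by IRAK4, went from 954 to 1113 on untreated wild-type arrays to 540.0 to 663 with LPS. It fell by a difference of -0.74 (SE 0.13, adjusted p = 0.00083) in wild type and -0.84 (SE 0.13, adjusted p = 0.000238) in the knockout, and the genotypes overlapped with LPS.

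Peli1, for the ubiquitin ligase Pellino-1, which modifies IRAK and RIP kinases and takes part in TRIF signalling, had the largest rise of the 34. It read 608, 613 and 633 in untreated wild type, 3260.2, 3754 and 2565 in wild type with LPS, 709, 806 and 862 in the untreated knockout and 4841, 5940.2 and 5617 in the LPS-treated knockout. The rise was 2.35 (SE 0.13, adjusted p = 2.71e-07) in wild type and 2.79 (SE 0.13, adjusted p = 7.41e-08) in the knockout, a 5.11-fold and a 6.89-fold change. The knockout arrays were above all wild-type arrays in both treatments, at 0.35 (SE 0.13, adjusted p = 0.477) untreated and 0.79 (SE 0.13, adjusted p = 0.00447) with LPS. The latter did not pass on only the arrays compared. Traf6, the ubiquitin ligase that activates TAK1, was not called, at 0.21 (SE 0.12, adjusted p = 0.205) in wild type and 0.29 (SE 0.12, adjusted p = 0.0611) in the knockout. The knockout rise of Traf6 passed with a replicate block within genotype (adjusted p = 0.0175) and without knockout untreated replicate 3 (0.43, adjusted p = 0.00279).

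In the TAK1 complex, the ubiquitin-binding subunits rose and another subunit fell, alike in direction in both genotypes. Tab2, whose product ties TAK1 to ubiquitin chains, read 3220.3, 3122 and 3119 in untreated wild type, 5001, 4970.0 and 5341 in wild type with LPS, 3095, 2945 and 2998 in the untreated knockout and 4175, 4547 and 4293 in the LPS-treated knockout. The rise was 0.69 (SE 0.06, adjusted p = 1.02e-05) in wild type and 0.53 (SE 0.06, adjusted p = 4.73e-05) in the knockout, without overlap. With LPS all knockout arrays were below all wild-type arrays, at -0.23 (SE 0.06, adjusted p = 0.0427), but this call was lost in 10 of 12 leave-one-out fits, with an adjusted p of up to 0.171, and kept without replicate 2 of either knockout group. Tab3, a relative of Tab2, rose by 0.43 (SE 0.09, adjusted p = 0.00484) in wild type and 0.40 (SE 0.09, adjusted p = 0.00512) in the knockout. Tab1, an activating subunit, lay between 288 and 349 on untreated and between 209 and 214 on LPS-treated wild-type arrays. Its difference was -0.62 (SE 0.08, adjusted p = 0.000152) in wild type and -0.66 (SE 0.08, adjusted p = 5.81e-05) in the knockout. The kinases themselves, Map3k7 (TAK1) and Map3k8 (Tpl2, which feeds the ERK pathway), were called in no comparison of the main fit. Map3k7 rose in both genotypes with each array centred on its 75th percentile (0.36 in wild type and 0.32 in the knockout). Map3k8 with LPS was higher on every knockout than on every wild-type array, at 0.40 (SE 0.12, adjusted p = 0.059). It passed without wild-type LPS replicate 2 (0.51, adjusted p = 0.0152), without knockout LPS replicate 1 (0.48, adjusted p = 0.0413) and with each array centred on its 75th percentile (adjusted p = 0.0366).

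Of the 4 measured IKK genes, 3 rose in wild type (Ikbkb, Ikbke and Tbk1) and 2 in the knockout (Ikbkb and Tbk1), and Ikbkb was lower in the knockout than in wild type with LPS. Ikbkb, the kinase that marks IκB proteins for destruction, read 1039.5, 895 and 825 in untreated wild type, 1583, 1529 and 1497 in wild type with LPS, 928, 906 and 930.2 in the untreated knockout and 1246, 1080.3 and 1069 in the LPS-treated knockout. It rose by 0.75 (SE 0.09, adjusted p = 7.93e-05) in wild type and 0.29 (SE 0.09, adjusted p = 0.0208) in the knockout, the latter not called without knockout LPS replicate 1 or knockout untreated replicate 2. With LPS every knockout array was below every wild-type array (-0.44, SE 0.09, adjusted p = 0.0125), a call lost only without wild-type LPS replicate 1 among the 12 leave-one-out fits. The difference between both responses was -0.45 (SE 0.13, adjusted p = 0.146).

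Ikbke, encoding IKKε, a kinase that acts beside TBK1 on interferon regulatory factors, read 1139, 896 and 677 in untreated wild type, 1778, 1937 and 2125 in wild type with LPS, 1149, 998 and 903 in the untreated knockout and 1299.5, 1057 and 1519 in the LPS-treated knockout. It rose in wild type (1.14, SE 0.18, adjusted p = 0.000552) and gave 0.34 (SE 0.18, adjusted p = 0.145) in the knockout, where the arrays overlapped. With LPS all knockout arrays lay below all wild-type arrays, at -0.60 (SE 0.18, adjusted p = 0.0652), and the difference of both responses was -0.80 (SE 0.26, adjusted p = 0.192), so neither passed. Without wild-type untreated replicate 1 or 3 the genotype difference did (adjusted p = 0.0407 and 0.0383), and with each array centred on its 75th percentile Ikbke rose in the knockout (0.55, adjusted p = 0.0129). Tbk1, the kinase of the TRIF branch, read 1071, 766 and 798 in untreated wild type, 1431, 1679 and 1252 in wild type with LPS, 872, 863 and 994 in the untreated knockout and 1737, 1809 and 1911 in the LPS-treated knockout. It rose by 0.73 (SE 0.13, adjusted p = 0.00151) in wild type and 1.00 (SE 0.13, adjusted p = 0.000108) in the knockout, without overlap in either. Ikbkg, the regulatory IKK subunit, was called in no comparison, at -0.47 (SE 0.25, adjusted p = 0.144) for LPS in the knockout. Without knockout LPS replicate 2 it fell there by 0.83 (adjusted p = 0.000781) and was lower than in wild type with LPS at -0.53 (adjusted p = 0.0497).

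The inhibitor gene Irak3 rose with LPS in wild type, was not called in the knockout, and had the largest difference of the 5 members lower in the knockout with LPS. Irak3 read 3943, 3669.5 and 3476 in untreated wild type, 6081, 5924 and 6747 in wild type with LPS, 2927, 3148 and 3019.5 in the untreated knockout and 3596, 2811 and 3039.5 in the LPS-treated knockout. Wild-type arrays with LPS were above every other array, and untreated wild-type arrays were all above the untreated knockout arrays. Knockout arrays with LPS overlapped the untreated knockout arrays. Irak3 rose in wild type by 0.76 (SE 0.10, adjusted p = 0.000107), a 1.69-fold change. In the knockout the difference was 0.05 (SE 0.10, adjusted p = 0.702), with a 95% interval of -0.16 to 0.26. With each array centred on its 75th percentile, which moved the median of all genes to 0.284, it was 0.26 (adjusted p = 0.0169).

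With LPS the knockout was lower in Irak3 by a log2 difference of -0.99 (SE 0.10, adjusted p = 0.000172), with a 95% interval of -1.20 to -0.79. It was -1.09 to -0.92 over the 12 leave-one-out fits and -1.05 to -0.86 over the 11 other alternatives run on it, called in each. Untreated, the difference was -0.28 (SE 0.10, adjusted p = 0.442), which did not pass although the arrays did not overlap. The difference between both LPS responses was -0.71 (SE 0.14, adjusted p = 0.0403), the only one of the 34 members to pass, where 0.747% of all genes did. That call was lost in 10 of 12 leave-one-out fits, which gave -0.81 to -0.63 over the 12 with an adjusted p of up to 0.121, and it was kept without wild-type LPS replicate 2 or knockout LPS replicate 1. With a replicate block within genotype its adjusted p was 0.0582. Tollip, an inhibitor that binds IRAK1, rose slightly in wild type (0.28, SE 0.09, adjusted p = 0.0342) and gave 0.08 (SE 0.09, adjusted p = 0.491) in the knockout, and with LPS it was lower on all knockout than on all wild-type arrays at -0.27 (SE 0.09, adjusted p = 0.0944). The wild-type rise of Tollip was lost without wild-type LPS replicate 1 or 3 or wild-type untreated replicate 2 or 3, and the genotype difference passed without wild-type LPS replicate 2 (-0.35, adjusted p = 0.0356).

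**Figure D4:**
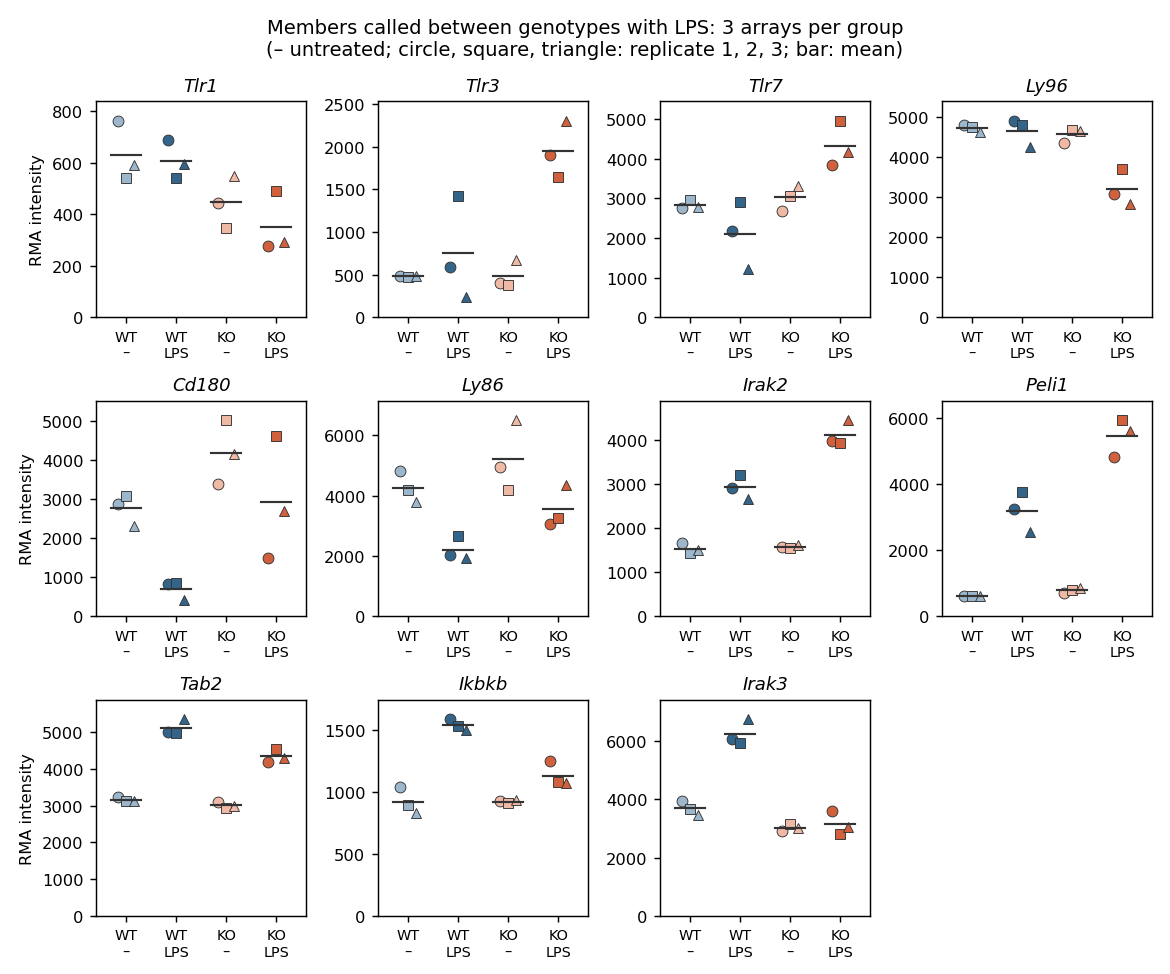
RMA intensity on a linear scale (y axes, from 0) on each of the 12 arrays for the 11 members called between genotypes with LPS, by group on the x axes (WT wild type, KO knockout, a dash for untreated), with circle, square and triangle for replicates 1, 2 and 3 and bars for the mean of 3. In each panel the 3 knockout arrays with LPS lie all above or all below the 3 wild-type arrays with LPS; for Irak3 they lie at 2811 to 3596 against 5924 to 6747.

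Without LPS no member was called between genotypes. None of the 34 passed in limma, where 0.0752% of all genes did. An unadjusted p under 0.05 was found for 4 of 34 (Tlr1, Tlr4, Irak3 and Peli1), against 1731 of 19938 genes. The median absolute difference was 0.089, against 0.087 over all genes. For the difference between LPS responses, 12 of 34 members had an unadjusted p under 0.05, against 2610 of 19938 genes. The median absolute difference there was 0.312, against 0.133 over all genes. Besides Irak3, the largest were those of Tlr3 (1.76, SE 0.67, adjusted p = 0.288) and Cd180 (1.41), and that of Tlr7 was 1.04 (SE 0.34, adjusted p = 0.205). Without wild-type LPS replicate 2 both Tlr3 (2.40, adjusted p = 0.0268) and Tlr7 (1.31, adjusted p = 0.0418) passed.

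The genes next in line were read from listed families, 1 probe set per gene as above. Beside their counts stand the shares of all genes given before: 9.53% rose and 28.1% were called in wild type, 21.9% rose and 45.7% were called in the knockout, and 8.14% differed between genotypes with LPS. An unadjusted p under 0.05 was found for 7537 of 19938 genes for LPS in wild type and for 4385 between genotypes with LPS. All 4 measured NF-κB subunit genes (Rela, Relb, Rel and Nfkb2 of 5) rose in both genotypes, led by Nfkb2 (3.14-fold in wild type, 2.71-fold in the knockout) and Rel (2.14-fold and 2.11-fold), all with an adjusted p under 0.05. None of these 4 was called between genotypes with LPS by limma, and 2 had an unadjusted p under 0.05. Of the 6 IκB proteins, 5 rose in both genotypes, Nfkbiz among them, and Bcl3 did not pass. With LPS the knockout was higher in Nfkbid (0.86, SE 0.16, adjusted p = 0.00848) and Nfkbie (0.57, SE 0.11, adjusted p = 0.00905) and lower in Nfkbiz. Of 8 measured MAP kinases and their kinases, 3 rose (Mapk8, Map2k1 and Map2k4) and 1 fell (Mapk14) in each genotype, so 4 of 8 were called, in the knockout a share near the 45.7% of all genes. Among these were Mapk8, the kinase JNK1, at 1.06 and 0.99, and Map2k1, the kinase MEK1, at 0.71 and 0.95. Between genotypes with LPS 1 was called, Mapk9 (JNK2), higher in the knockout by 0.55 (SE 0.13, adjusted p = 0.0224).

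The interferon regulatory factors Irf1 and Irf5 were higher, and Irf3 lower, in the knockout than in wild type with LPS. For the LPS response in wild type 0 of 5 were called by limma, and 1 had an unadjusted p under 0.05. In the knockout Irf1 (1.76, SE 0.27, adjusted p = 0.000267) and Irf5 (0.64, SE 0.15, adjusted p = 0.0046) rose, and Irf3 (-0.57) and Irf8 (-1.04) fell. With LPS the knockout was higher in Irf1 (1.72, SE 0.27, adjusted p = 0.00303) and Irf5 (0.91, SE 0.15, adjusted p = 0.00421) and lower in Irf3 (-0.48, SE 0.09, adjusted p = 0.00854), which encodes the factor activated through TRIF and TBK1. The interferon-stimulated level of the arrays, given above, applies here too, and its part was not tested.

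Among 10 other negative regulators of the pathway, 7 rose in wild type, where 9.53% of all genes did, and 8 in the knockout, where 21.9% did. The largest were Tnfaip3, encoding the deubiquitinase A20, at 2.80 (SE 0.10, adjusted p = 1.28e-08) in wild type and 2.59 (SE 0.10, adjusted p = 2.41e-08) in the knockout, and Zc3h12a, encoding the ribonuclease Regnase-1, at 2.14 (SE 0.13, adjusted p = 6.34e-07) and 1.80 (SE 0.13, adjusted p = 1.6e-06). None of the 10 was called between genotypes with LPS by limma, and 2 had an unadjusted p under 0.05.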

How the data were processed

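The authors deposited 1 linear intensity for each probe set and array (6.96 to 22642). Per the submitters' processing notes, these came from Affymetrix Expression Console 1.1 and RMA, which brings the distributions of all arrays close together, so a shift of most genes in 1 direction can be masked. The deposited values were not fully alike between arrays, with array medians of 110.4 to 118.7. The design had allowed for log values; these were linear, and log2 was taken with no pseudocount.

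Of 35556 probe sets, 21789 carried 1 symbol in the platform annotation, 1621 several and 12146 none. The brightest was kept for 999 genes with several. Group means of all 12 arrays were fitted in R 4.3.3 with limma 3.58.1 (lmFit, eBayes, 8 residual degrees of freedom). The fit was also run on simulated data with independent noise for each gene and array. These lacked the correlation between same-numbered knockout arrays given below, so they could not test the fit under it. The number of arrays limits the precision.

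The members, lists and rules were chosen with earlier results of these data known. All 12 values are printed for members called between genotypes or in the difference of responses, for those called for LPS with a log2 difference of at least 1, and for Tlr4, Cd14, Ly96, Myd88 and Irak3.

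The deviations of same-numbered untreated and LPS arrays correlated at r = 0.322, 0.568 and 0.459 in the knockout. In wild type r was -0.070, 0.143 and 0.359, so the genotypes overlapped in r. Across genotypes r was -0.255 to 0.087. The replicate block within genotype took the numbers as pairs in the knockout and in wild type. Alternatives were array scalings, a pseudocount of 16, an intensity trend, array weights, removal of dim genes, all probe sets, a replicate block, fits on the arrays compared and leaving out each array. The block within genotype and both settings without a pair of arrays were added after the data were seen.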

Additional observations from a re-analysis of the deposited data

Results flagged for a closer look

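One member's LPS response differed between the genotypes by a test of the difference itself. Irak3 rose with LPS in wild type by 0.76 on the log2 scale and was not called in the knockout, where the difference was 0.05 (adjusted p = 0.702), and the response was lower in the knockout by a log2 difference of -0.71 (limma adjusted p = 0.0403). The adjusted p was 0.0672 with a replicate block and 0.153 without wild-type LPS replicate 3 and knockout untreated replicate 3.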

How the results depend on the processing

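Over 3978 member results under alternatives, 3774 kept their side of the threshold, 131 lost their call and 73 gained one. Of results called in the main fit or the alternative, 0 reversed direction. Where neither was called, direction was not compared, and some of these small differences changed sign. Of 234 counts, 179 stayed within 1.5 times the main count. Leaving out each array in turn gave 6 to 12 members and 712 to 2158 genes called between genotypes with LPS, 6 to 23 genes untreated, and 0 to 3 members and 55 to 365 genes for the difference of responses. Between genotypes with LPS, 7 members were called with a replicate block, 2 on only the arrays compared and 6 without the pair that deviated in interferon-stimulated level (wild-type LPS replicate 3 and knockout untreated replicate 3). Genes called there were 3296 with array weights, 492 on only the arrays compared, 655 without those 2 arrays and 688 without knockout LPS replicate 2 and wild-type LPS replicate 3. For the difference of responses, 4 members were called with array weights, 2 without the last-named pair, 0 with a replicate block and 0 without the deviating pair, and 667 genes with array weights, 296 with a replicate block within genotype and 45 without the deviating pair. Untreated, 24 genes were called after quantile normalization, 25 with 75th percentile centring, 46 with array weights, 30 with a replicate block, 2 on only the arrays compared and 29 without the last-named pair. For LPS, 75th percentile centring called 10190 genes in wild type and 14386 in the knockout, and array weights 10113 in wild type. Array weights also moved the share of rising genes in wild type to 50.2%, and 75th percentile centring that of higher genes in the difference of responses from 40.3% to 55.6%. Fewer arrays are fitted on only the arrays compared and when arrays are left out. The cause of these moves was not tested for any setting.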
